A study of Arabidopsis thaliana with 6 samples.

Results

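The B-box zinc finger genes described here are 10 of the 32947 genes in the deposited leaf mRNA tables of Arabidopsis thaliana: CO, COL1, COL2, BBX17, BBX18, BBX19, BBX24, BBX25, BBX29 and BBX32. They were taken by gene ID, all 10 were present, and all 10 passed the filter of at least 1 RPKM in at least 1 library. RPKM divides a gene's reads by its length in kilobases and by the size of the library. The genes were chosen by name with their RPKM differences between mutants and wild type in these same libraries known, so their differences from wild type, and the count of them that a fit across all genes calls, are given as a description, and no p-value is printed for them.

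B-box proteins carry a zinc-binding fold through which they bind other proteins, and many are transcription factors or transcriptional cofactors of light signalling, flowering and the circadian clock. The family is sorted by its domains. Groups I and II have a pair of B-boxes and a CCT domain, group III a lone B-box with a CCT domain, group IV a pair of B-boxes without CCT, and group V a lone B-box without CCT. In leaves several of them act with or against the bZIP factor HY5 and are targets of the COP1 ubiquitin ligase, while CO in the leaf vasculature activates the florigen gene FT.

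The tissue was leaf at an age of 3 weeks from Columbia-0 plants kept in constant light, so none of the groups had a day and night cycle. Wild type (WT) had 2 libraries. Each of 4 mutant genotypes had 1 library. The nrpe1-11 mutant (nrpe1) affects the largest subunit of RNA polymerase V. The idn2 mutant (idn2), whose genotype label names no allele, affects an RNA-binding protein of RNA-directed DNA methylation. The idnl1-1 idnl2-1 double mutant affects the IDN2 relatives. The triple mutant carries idn2-1 besides both idnl alleles. The labels do not tell whether separate plants gave the WT libraries, so the spread behind each p-value is that of these libraries and may be technical.

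Depth was 2737943 to 3078153 reads in WT replicate 1, nrpe1, idn2 and the triple mutant, and 5819494 and 5975802 in the double mutant and WT replicate 2. Each of these sets of libraries held a WT library. Differences from the mean of both WT libraries still carry any batch or depth difference between the sets. Each mutant was therefore also set against the WT library of its own depth. With 1 library per mutant, genotype cannot be told apart from a difference of that library alone. IDNL1 stood at 4.86 and 6.37 RPKM in WT, the triple mutant had 0.187 and the double 0.316, while NRPE1 had 4.92 RPKM in nrpe1 against 2.14 and 3.72 in WT, and IDN2 had 12.4 in idn2 against 18.0 and 17.1. A count over the whole span does not check an allele that leaves part of the transcript, so directions in nrpe1 and idn2 rest on the labels. The leaf markers RBCS1A, RCA, CAB1 and LHCB2.1 summed to 583 to 1050 RPKM. The floral markers AP1, AG, PI and SEP3 summed to 10.9 RPKM in nrpe1, 3.32 and 4.80 in WT and 1.92 to 3.38 in the other mutants, and each of the 4 had reads in all 6 libraries. The root markers summed to 1.56 RPKM in nrpe1 and to 3.16 to 5.56 elsewhere. Of the seed markers, SESA1 and CRU3, only 1 read was found, in WT replicate 2.

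BBX24 was the most abundant of the 10 genes in WT and CO the least. The WT mean was 147 RPKM for BBX24, 75.2 for COL2, 60.9 for BBX25, 43.1 for COL1, 28.7 for BBX18, 23.5 for BBX17, 14.6 for BBX29, 10.2 for BBX32, 9.69 for BBX19 and 0.889 for CO. The ranges of the 2 WT libraries did not overlap between neighbours in this order, except for BBX32 and BBX19. These levels are per kilobase of span with introns. With the RefSeq exon lengths of TAIR10.1, usable for the 6 genes whose exons there were no longer than the deposited span, the WT mean of BBX25 was 75.4 and that of BBX18 41.7 on the same scaling, and the order among the 6 stayed as it was. The WT libraries were less than 2-fold apart in all 10 genes, and farthest apart in CO and BBX32.

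**Figure D1:**
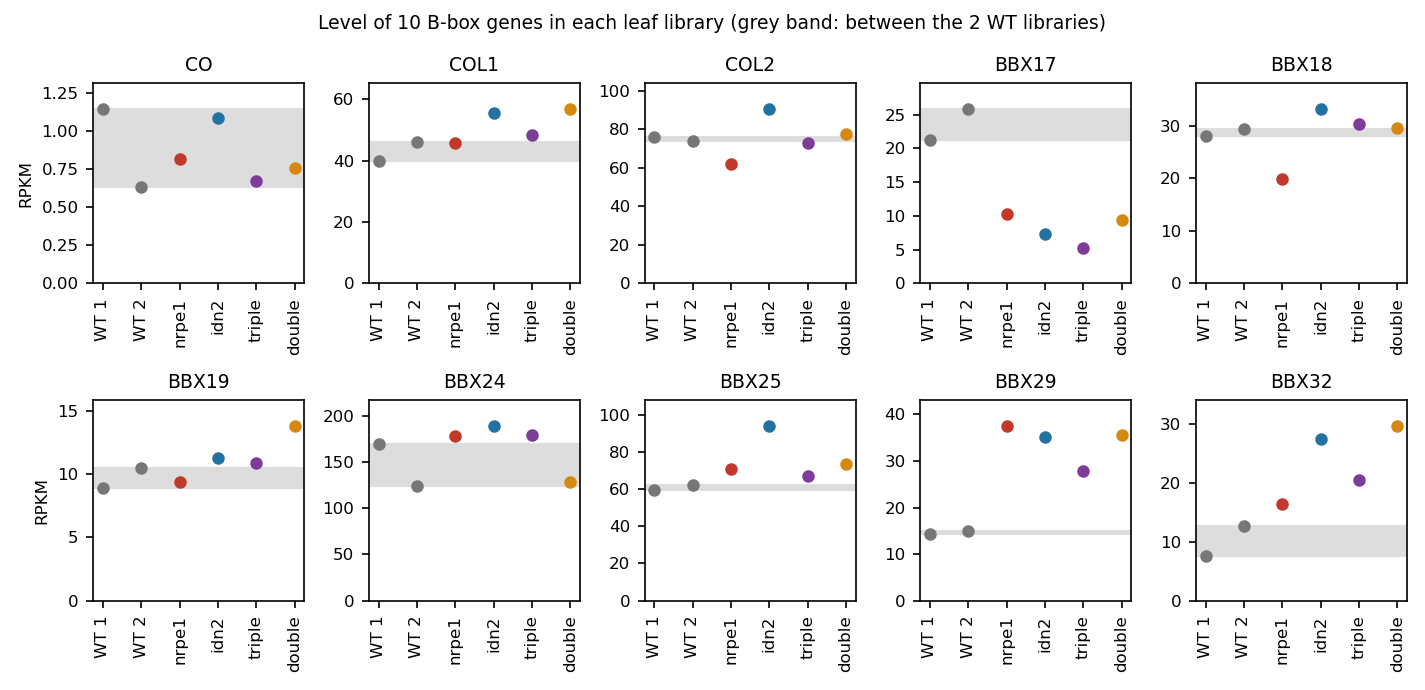
RPKM (y axes, from 0, scaled per gene) of the 10 B-box genes in each of the 6 leaf libraries (x axes), 1 point a library, with a grey band between the 2 WT libraries. BBX17 lies below the band, and BBX25, BBX29 and BBX32 above it, in all 4 mutants.

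BBX29 and BBX32, both of group V, had more mRNA in all 4 mutant libraries than in either WT library, and BBX25 of group IV did too by a smaller margin. BBX17 of group III had less in all 4. That is 3 of 10 genes above and 1 of 10 below, beside 3.11% and 7.53% of the 22362 genes tested. Since these values put the genes forward, nothing is read from that count. The tissue was a bulk of cells, so less mRNA per cell and fewer expressing cells cannot be told apart in any of these values.

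BBX29 (AT5G54470, chromosome 5, 22131530 to 22132698, TAIR8) stood at 14.2 and 15.0 RPKM in WT replicates 1 and 2. It had 37.4 in nrpe1, 35.2 in idn2, 27.9 in the triple mutant and 35.5 in the double. The mutants thus form a group of their own, with the triple mutant lowest among them, and do not overlap WT. On the log2(RPKM + 1) scale, which understates the change of low genes, the difference from the WT mean was 1.30 in nrpe1, 1.22 in idn2, 0.89 in the triple mutant and 1.23 in the double (SE 0.22 each, limma).

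BBX32, which dampens light signalling by binding BBX21 (AT3G21150, chromosome 3, 7412642 to 7413545), was less even in WT, with 7.59 RPKM in replicate 1 and 12.7 in replicate 2. It had 16.4 RPKM in nrpe1, 27.3 in idn2, 20.4 in the triple mutant and 29.5 in the double. All 4 lie above both WT libraries, nrpe1 closest to them. The log2 difference was 0.68 in nrpe1, 1.38 in idn2, 0.98 in the triple mutant and 1.49 in the double (SE 0.26). The distance from WT depended on which WT library was used: in nrpe1 leaving out WT replicate 1 gave 0.34 and leaving out WT replicate 2 gave 1.02, and for the triple mutant these were 0.64 and 1.31.

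BBX17 (AT1G49130, chromosome 1, 18178408 to 18179632), the 1 member with a lone B-box and a CCT domain, had 21.2 and 25.8 RPKM in WT. It had 10.2 in nrpe1, 7.28 in idn2, 5.20 in the triple mutant and 9.35 in the double. Every mutant was more than 2-fold below the lower WT library. The log2 difference was -1.12 in nrpe1, -1.56 in idn2, -1.98 in the triple mutant and -1.24 in the double (SE 0.35).

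Within a library the ratio of BBX29 to BBX17, which no scaling between libraries can alter, restates the differences just given. Per kilobase of span BBX29 stood at 0.670 and 0.579 times the RPKM of BBX17 in WT, and at 3.65 times in nrpe1, 4.84 in idn2, 5.36 in the triple mutant and 3.80 in the double. Which gene of the pair is the higher in WT depends on the gene lengths used, and exon lengths could not be used for BBX17. The ratio of BBX29 to BBX32, the 2 genes of group V, was 1.18 to 1.87 in WT and 1.20 to 2.29 in the mutants, so these ranges overlapped.

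**Figure D2:**
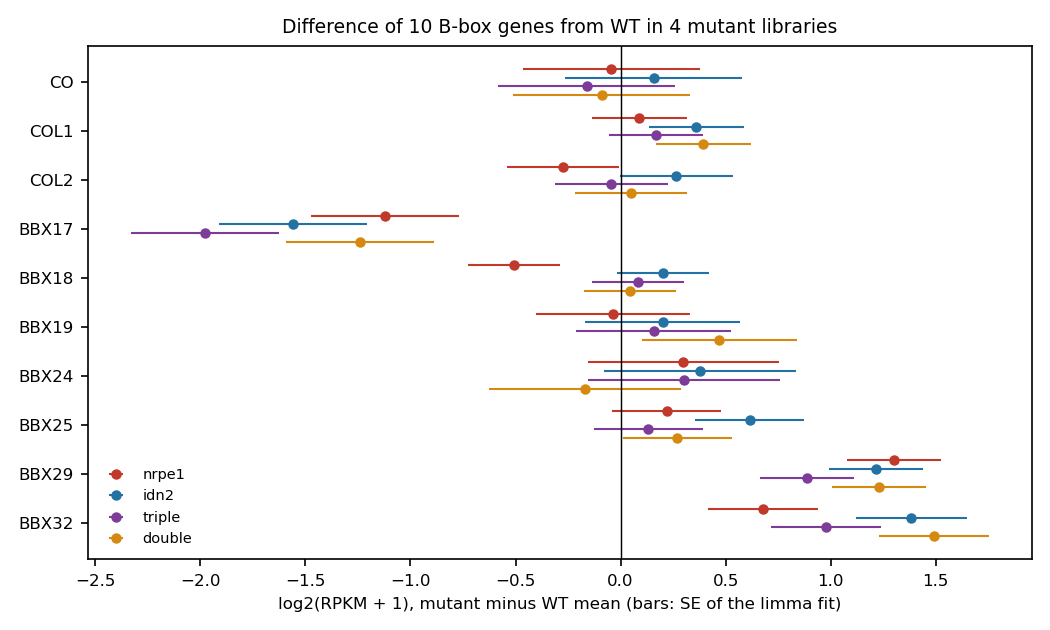
Difference of each of the 10 genes (y axis) from the WT mean on the log2(RPKM + 1) scale (x axis) in the 4 mutant libraries, with the SE of the limma fit as bars. BBX17 lies between -1.98 and -1.12 and BBX29 between 0.89 and 1.30, while the 6 genes CO, COL1, COL2, BBX18, BBX19 and BBX24 stay within -0.51 and 0.47.

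The group IV genes varied less. BBX24 (STO, AT1G06040, chromosome 1, 1828412 to 1829889), a negative regulator of seedling light responses that binds COP1 and HY5, had 170 RPKM in WT replicate 1, with nrpe1 at 179, idn2 at 189 and the triple mutant at 179, but only 124 in WT replicate 2, with the double mutant at 129. The 4 shallower libraries were thus high and both deeper libraries low, whatever the genotype, as was the summed level of the leaf markers. The highest reads per base of any gene was 1.39 in WT replicate 1 and 1.56 in the deeper WT replicate 2. The 4 leaf markers held 4617 and 5412 reads there, a smaller rise than that of depth. The part of depth, or of a ceiling on reads of abundant genes, was not tested. Among the 638 genes with a WT mean of 100 to 200 RPKM, the median ratio of WT replicate 2 to replicate 1 was 0.768, and for BBX24 it was 0.729. Against the WT library of like depth, the mutants had 1.04 to 1.11 times its share of reads. A ceiling on reads would lower such levels and narrow such ratios, which was not tested.

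BBX25 (STH, AT2G31380, chromosome 2, 13388987 to 13390547), the close relative of BBX24, did not show that split: it had 59.7 and 62.2 RPKM in WT, 71.1 in nrpe1, 93.8 in idn2, 66.9 in the triple mutant and 73.7 in the double. The idn2 library stood apart, at a log2 difference of 0.61 (SE 0.26), and the other 3 lay between 0.13 and 0.27. The last 47 bases of its span overlap AT2G31390 on the other strand, 3.01% of the span, so few of its reads can be shared.

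BBX18 and BBX19 carry a pair of B-boxes, and BBX19 delays flowering by binding CO. BBX18 (AT2G21320, chromosome 2, 9133344 to 9134924) stood at 28.1 and 29.4 RPKM in WT, 19.9 in nrpe1, 33.2 in idn2, 30.4 in the triple mutant and 29.6 in the double. Only nrpe1 lay below WT, by a log2 difference of -0.51 (SE 0.22). BBX19 (AT4G38960, chromosome 4, 18161347 to 18163297) stood at 8.88 and 10.5 RPKM in WT, 9.40 in nrpe1, 11.2 in idn2, 10.9 in the triple mutant and 13.8 in the double, with log2 differences of -0.04 to 0.47 (SE 0.37). For BBX19 the SE was larger than 3 of these 4 differences.

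Of the group I genes, COL1 and COL2 had log2 differences of -0.27 to 0.39, and CO had too few reads to compare. CO (AT5G15840, chromosome 5, 5171185 to 5172761), the activator of FT in long days, was barely read: 4 and 5 reads in WT, 3 in nrpe1, 4 in idn2, 2 in the triple mutant and 6 in the double, or 0.634 to 1.14 RPKM, values that include 1 read the deposited tables add to every gene. A difference in CO was not detectable at this depth; the read ratio to WT had an interval of 0.0443 to 3.42 in the triple mutant. FT itself was measured at 10.7 and 12.8 RPKM in WT and 9.03 to 13.7 in the mutants.

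COL1 (AT5G15850, chromosome 5, 5176094 to 5177900) lies next to CO and is, with COL2, its closest relative. It had 40.0 and 46.2 RPKM in WT, 45.7 in nrpe1, 55.4 in idn2, 48.4 in the triple mutant and 56.8 in the double. Its log2 differences were 0.09 to 0.39 (SE 0.23). The noncoding gene AT5G15845, on the other strand, covers 99.6% of the COL1 span. It holds 181 and 449 reads in WT replicates 1 and 2, where COL1 holds 199 and 500. In nrpe1, idn2, the triple and the double mutant it holds 227, 248, 228 and 537. COL1 holds 256, 291, 246 and 599 there, so the 2 genes had similar reads in every library. How strand was handled in counting was not stated, and whether the 2 genes share reads was not tested. COL2 (AT3G02380, chromosome 3, 487243 to 488700) stood at 76.3 and 74.0 RPKM in WT, 62.0 in nrpe1, 90.6 in idn2, 72.8 in the triple mutant and 77.8 in the double. Its nrpe1 and idn2 libraries lay on opposite sides of WT, at log2 differences of -0.27 and 0.27 (SE 0.27).

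The libraries of like depth were next compared by reads. Intervals are exact 95% binomial intervals; they cover counting error only and compare libraries, not genotypes. BBX29 had 135 reads in nrpe1 against 45 in WT replicate 1, a ratio of read shares of 2.67 (1.89 to 3.83). The ratio was 2.51 (1.77 to 3.62) in idn2, 1.98 (1.37 to 2.90) in the triple mutant, and 2.39 (1.89 to 3.04) in the double mutant against WT replicate 2. BBX32 had only 18 reads in WT replicate 1, and its ratios were 2.22 (1.26 to 4.08), 3.74 (2.21 to 6.67), 2.78 (1.59 to 5.05) and 2.34 (1.75 to 3.16) in the same order.

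BBX17 gave 38, 25 and 17 reads in nrpe1, idn2 and the triple mutant, where WT replicate 1 gave 71, and the double mutant gave 66 where WT replicate 2 gave 189. The ratios were 0.476 (0.312 to 0.716), 0.334 (0.203 to 0.534), 0.235 (0.130 to 0.403) and 0.359 (0.267 to 0.477). These are the same reads as behind the RPKM that put the 3 genes forward, so their intervals add only the counting error. Between the WT libraries, the interval included 1 for BBX17 (0.924 to 1.63) and BBX29 (0.740 to 1.54) and not for BBX32 (1.02 to 3.09).

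Over the 10 genes, the interval lay above 1 for 3 in nrpe1, 6 in idn2, 3 in the triple mutant and 5 in the double, beside 10.8%, 5.35%, 3.83% and 6.05% of all genes tested. It lay below 1 for 3, 1, 1 and 1, beside 8.97%, 5.72%, 4.54% and 7.3%. Nothing is read from these counts, for the reason given. Among the other 7 genes, BBX25 had an interval above 1 in nrpe1, idn2 and the double mutant, and COL1 in idn2, the triple and the double mutant. COL2 and BBX18 had an interval below 1 in nrpe1, at 0.811 (0.687 to 0.957) and 0.707 (0.536 to 0.931). BBX19 reached 1.31 (1.03 to 1.68) in the double mutant. BBX24 reached 1.11 (1.00 to 1.23) and COL2 1.19 (1.02 to 1.38) in idn2.

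**Figure D3:**
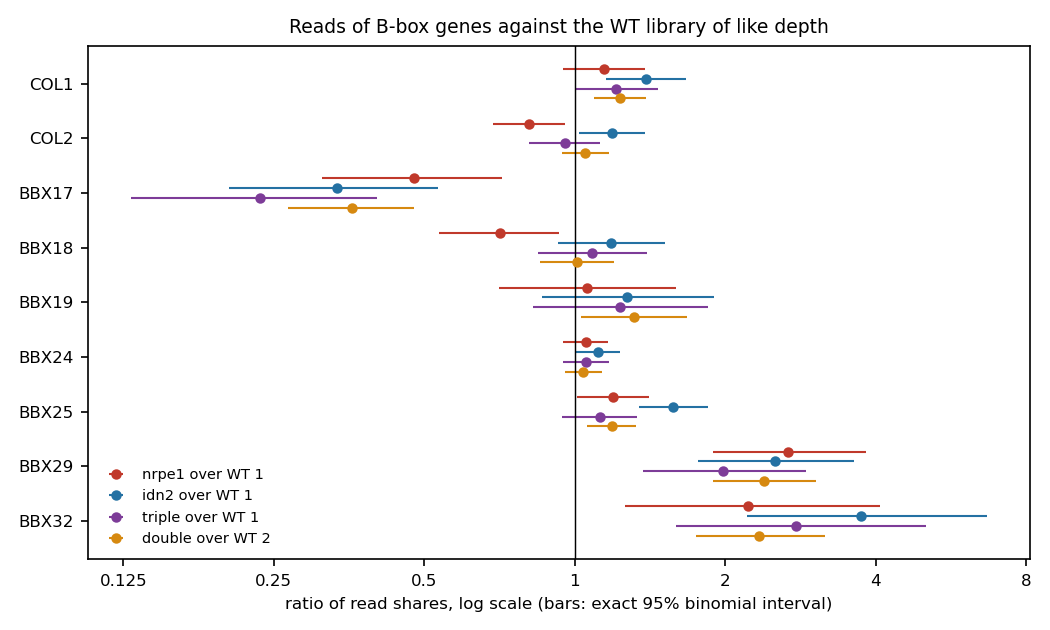
Ratio of the share of reads in each mutant library to that in the WT library of like depth (x axis, log scale) for 9 B-box genes (y axis; CO, with 2 to 6 reads, is left out), with exact 95% binomial intervals as bars. All 4 intervals lie above 1 for BBX29 and BBX32 and below 1 for BBX17.

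The mutant libraries were also compared with each other. Each mutant had 1 library, so these intervals of counting error compare libraries, not genotypes, and nothing is read from the counts. Between the WT libraries, replicate 2 over replicate 1, the ratio for BBX32 was 1.73 (1.02 to 3.09). Between idn2 and nrpe1, of like depth, the interval of the read ratio lay above 1 for 5 of the 10 genes, beside 6% of all genes tested, and below 1 for 0, beside 6.67%. BBX32 was 1.68 times higher in idn2 (1.14 to 2.50), BBX18 1.67 times (1.29 to 2.18), COL2 1.46 times (1.25 to 1.71), BBX25 1.32 times (1.14 to 1.53) and COL1 1.21 times (1.02 to 1.44). The triple mutant, which carries an idn2 mutation as well, had less BBX25 than idn2, at 0.713 times (0.612 to 0.829), and less COL2, at 0.804 times (0.689 to 0.938). Of the 10 genes 0 lay above idn2, beside 5.86%, and 2 below, beside 6.11%. BBX29 was lower in the triple mutant than in nrpe1, at 0.743 times (0.563 to 0.976), and so was BBX17, at 0.493 times (0.261 to 0.895); 1 of 10 lay above nrpe1 (BBX18), beside 8.53%, and 2 below, beside 10.8%. The floral markers, highest in nrpe1, move with these differences from nrpe1, and their part was not tested.

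In the fit across all 22362 genes (limma, Benjamini-Hochberg adjusted p under 0.05), 2 of the 10 genes were called in nrpe1. BBX29 was the 1 called higher, beside 0.666% of all genes, and BBX17 the 1 called lower, beside 2.59%. In idn2 BBX29 and BBX32 made 2 higher, beside 0.246%, and BBX17 made 1 lower, beside 1.41%. In the triple mutant BBX29 made 1 higher, beside 0.0715%, and BBX17 made 1 lower, beside 0.228%. The double mutant had BBX29 and BBX32 as 2 higher, beside 0.188%, and 0 lower, beside 0.157%; BBX17 was called lower there with median-of-ratios scaling, quantile normalization and voom. BBX32 was called higher in nrpe1 and in the triple mutant with either of those scalings. With nrpe1, idn2 and the triple mutant taken as 1 group, BBX29 was 1 higher, beside 0.0313%, and BBX17 was 1 lower, beside 0.219%. The same contrasts put the genes forward, so these counts describe them and support nothing. In the joint comparison 0 of the 10 genes were called when either WT library was left out. The WT pair supplies the only residual degree of freedom of the single-mutant fits, and each mutant was assumed to vary as WT does. On simulated libraries this fit called unchanged genes more often than the threshold allows, in every comparison. Those libraries lacked the shift with level between the real WT libraries, so this share cannot be carried over to them. An adjusted p under 0.05 may be less strict here than it reads, which was not tested.

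By the plain rule of at least 2-fold beyond both WT libraries in RPKM, BBX17 was the 1 gene below in each mutant, beside 3.66% of all genes tested in nrpe1, 2.95% in idn2, 2.26% in the triple mutant and 1.26% in the double. Above WT were 1 gene in nrpe1 (BBX29, beside 1.31%), 2 in idn2 (BBX29 and BBX32, beside 0.631%), 0 in the triple mutant (beside 0.461%) and 2 in the double (BBX29 and BBX32, beside 0.496%). Leaving out WT replicate 2 gave the triple mutant 2 genes by this rule in either direction, BBX17 below and BBX32 above. Of all genes tested, 3180 had under 10 reads in every library, where a few reads make 2-fold.

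The rest of the family was read from a list of the other 22 B-box genes, of which 18 passed the filter. This list was chosen with earlier results of these libraries known. The limma p-values printed for its genes are thus a description and not an independent test. BBX9, BBX23 and BBX26 had 0 reads in all 6 libraries and BBX10 had 1 read, in nrpe1. A count of 0 allows up to 3 reads, which for BBX9 is 0.428 to 0.929 RPKM depending on the library. The 3 most abundant were COL3, COL5 and BBX15, with WT means of 162, 158 and 144 RPKM. In each, as for BBX24, WT replicate 2 was below replicate 1, at 0.816, 0.794 and 0.824 times its RPKM. By limma 1 of 18 was lower in nrpe1 and 1 of 18 in idn2, the same gene, BBX14. In the triple mutant 1 was higher and 1 lower, and in the double mutant 1 was higher. Of all genes tested, the same fit called 2.59% lower in nrpe1 and 1.41% lower in idn2. In the triple mutant it called 0.0715% higher and 0.228% lower, and in the double 0.188% higher. The median log2 difference of the 18 was 0.09 in nrpe1, 0.09 in idn2, 0.10 in the triple mutant and -0.03 in the double, beside 0.02, -0.02, -0.05 and 0.04 over all genes tested.

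BBX31, of group V like BBX29 and BBX32, is a small protein that binds CO and recruits a repressor. It had 19.2 and 25.0 RPKM in WT, 31.6 in nrpe1, 36.5 in idn2, 42.8 in the triple mutant and 51.3 in the double, above WT in all 4. It rose by 0.93 in the triple mutant (SE 0.22, limma adjusted p = 0.00882) and by 1.19 in the double mutant (adjusted p = 3.17e-05); in idn2 the difference was 0.71 (adjusted p = 0.0577) and in nrpe1 0.51 (adjusted p = 0.307). The rise in the triple mutant did not pass with voom, limma's method for counts, run on the recovered reads; median-of-ratios scaling added calls of BBX31 in nrpe1 and idn2, and quantile normalization in idn2.

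BBX27, also of group V, went the other way in the triple mutant, with 9.72 RPKM against 18.7 and 25.2 in WT (log2 difference -1.09, SE 0.26, limma adjusted p = 0.0146), a call that voom did not make. It had 12.9 RPKM in the double mutant (-0.71, adjusted p = 0.714; called with median-of-ratios scaling and quantile normalization), 25.8 in nrpe1 and 19.5 in idn2. Both libraries with the idnl1 and idnl2 alleles thus lay below WT and the other 2 did not; a test of that difference was not run.

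BBX28 and BBX30 were looked at after their values were seen, to complete group V. BBX28, which binds HY5, had 78.9 and 79.3 RPKM in WT and 92.2 to 104 in the mutants. BBX30, the relative of BBX31, had 26.1 and 19.97 RPKM in WT and 31.3 to 36.1 in the mutants. Neither passed limma in any mutant, with log2 differences of 0.22 to 0.39 and 0.44 to 0.64, though median-of-ratios scaling called BBX30 in nrpe1 and the triple mutant. Of the 6 tested genes of group V, 5 were above both WT libraries in all 4 mutants, beside 3.11% of all genes tested. BBX27 was the exception. Without BBX29 and BBX32, which were put forward on these values, it was 3 of 4. The other genes were also listed with earlier results of these libraries known. Nothing is therefore read from the counts and medians of the groups given here. In group I the number was 0 of 6, in group II 0 of 5, in group III 0 of 4 and in group IV 1 of 7. That gene of group IV was BBX25, also put forward on these values. Below both WT libraries in all 4 mutants were 0 of 6 in group I, 1 of 5 in group II, 2 of 4 in group III, 1 of 7 in group IV and 0 of 6 in group V, beside 7.53%. The 2 of group III were BBX14 and BBX17, and BBX17 was put forward on these values. The group medians of the log2 difference were 0.50 in nrpe1, 0.57 in idn2, 0.76 in the triple mutant and 0.91 in the double for group V, and -0.47, -0.56, -0.06 and -0.39 for group III. Without BBX29 and BBX32 the 4 other genes of group V had medians of 0.44, 0.39, 0.44 and 0.43. The medians of group III include BBX17, put forward in the same way. Of its other genes, BBX15 had log2 differences of 0.11 in nrpe1, 0.13 in idn2, 0.10 in the triple mutant and -0.13 in the double. BBX16 had 0.04, 0.26, 0.20 and 0.24 in the same order, and BBX14 is given below.

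**Figure D4:**
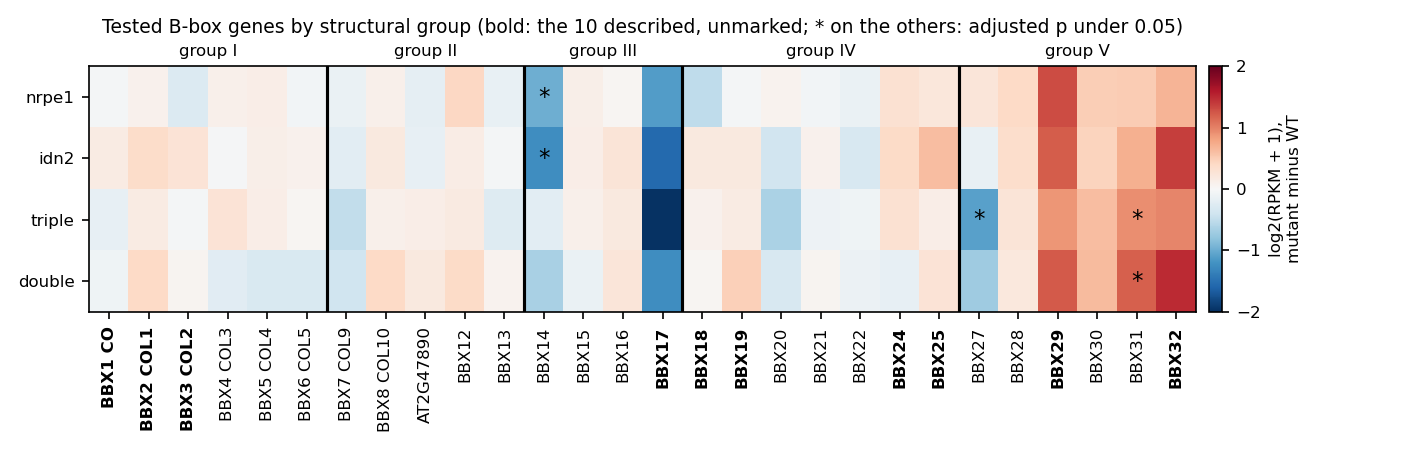
Colour map of the log2(RPKM + 1) difference from WT (red higher, blue lower) for the 28 tested B-box genes (columns, by structural group, names of the 10 described genes in bold) in the 4 mutant libraries (rows); asterisks mark a limma adjusted p under 0.05 among the 18 other genes, and the 10 are left unmarked. Group V is red but for BBX27, and in group III BBX14 and BBX17 are blue while BBX15 and BBX16 are pale.

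BBX14 is in group III with BBX17. It had 127 and 110 RPKM in WT, 59.7 in nrpe1, 49.3 in idn2, 102 in the triple mutant and 74.9 in the double. It fell by 0.97 in nrpe1 (SE 0.28, limma adjusted p = 0.0212) and by 1.25 in idn2 (adjusted p = 0.00125), and had a log2 difference of -0.21 in the triple mutant (adjusted p = 1.00). Both calls were lost with median-of-ratios scaling. The triple mutant, lowest of all for BBX17, was thus closest to WT for BBX14.

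Genes that act with B-box proteins were read from 3 further lists. These were also chosen with earlier results known, so their p-values are a description too. Among 20 genes of light signalling (photoreceptors, PIFs, the COP1 and SPA complex, HY5 and HYH), 1 fell by limma: HY5, the bZIP factor that several B-box proteins bind, from 25.3 and 28.8 RPKM in WT to 14.2 in nrpe1 (-0.89, SE 0.23, adjusted p = 0.00501), not called by voom. Median-of-ratios scaling added SPA4 and quantile normalization PIF5 in nrpe1. HY5 had 19.6 RPKM in idn2, 32.7 in the triple mutant and 29.1 in the double. In those 3 libraries limma called 0 of 20, voom called 0, and 0, 2 and 0 had an unadjusted p under 0.05; median-of-ratios scaling called PHYA in the triple mutant. The medians of this list were -0.21, -0.01, 0.03 and 0.13 in nrpe1, idn2, the triple and the double mutant. Of all genes tested, limma called 2.59% lower in nrpe1.

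Of 15 tested genes of photoperiodic flowering around CO, 3 fell in nrpe1: CDF2, a DOF repressor of CO (-1.30, limma adjusted p = 0.0166), AT1G69570 (-0.98, adjusted p = 0.00346; not called by voom) and GI, which with FKF1 removes CDF proteins (-0.91, adjusted p = 0.00166). CDF3 rose in idn2 (0.91, adjusted p = 0.0404), a call lost with no filter on low values and with median-of-ratios scaling, and NF-YC4, a subunit of the factor that CO joins, fell in the triple mutant (-0.88, adjusted p = 0.0239), a call lost with no filter and with voom. In the double mutant limma and voom called 0 of 15, with 1 at an unadjusted p under 0.05. Of 11 clock genes 2 fell in nrpe1, RVE8 (-1.20, adjusted p = 0.000436) and CCA1 (-0.96, adjusted p = 0.0110; lost with median-of-ratios scaling). Limma and voom called 0 of 11 in idn2, the triple and the double mutant, with 2, 0 and 1 at an unadjusted p under 0.05. Median-of-ratios scaling and quantile normalization each called PRR9 and LUX in idn2, and median-of-ratios scaling called PRR9 in the double mutant. In nrpe1 genes above WT were also gained: CDF3 (0.80) with quantile normalization and voom, ELF4 (1.12) with both scalings, and SOC1 (0.51) with median-of-ratios scaling. Median-of-ratios scaling also called AT1G69570, which was lower, in idn2 (-0.71). The list medians in nrpe1 were -0.16 for flowering and -0.17 for the clock. Of all genes tested, limma called 2.59% lower in nrpe1, 0.246% higher in idn2 and 0.228% lower in the triple mutant.

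The neighbours of the 10 genes on the chromosome were read for shared reads or shared change. Of 20 flanking and 2 overlapping entries, 1 was called in any comparison: AT2G21310, a pseudogene-class gene that ends 1051 bases before BBX18. It had 35 reads in the double mutant and 0 in each of the other 5 libraries, while BBX18 stood at 29.6 RPKM in the double mutant, next to the 29.4 of WT replicate 2. FBA1 and FBA2, aldolase genes, flank BBX18 and BBX19 and had 133.9 to 244 and 122 to 229 RPKM, with the lower values in the 2 deeper libraries.

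Likeness of pattern was measured as the root mean square difference of log2(RPKM + 1), centred per gene, over the 6 libraries, among 15121 genes with a mean of at least 5 RPKM. It is a description of 6 points that share library and depth. Closest to BBX17 were AT5G22920 (0.145), UGT74F2 (0.182) and AT4G27450 (0.185). Closest to BBX29 were ACD6 (0.128), ASG8 (0.169) and AT4G26950 (0.184). Closest to BBX32 were AT4G27657 (0.177), AT4G26950 (0.179) and AT3G18950 (0.194). AT4G26950 was near both group V genes, with 4.85 and 5.87 RPKM in WT, 10.8 in nrpe1, 15.0 in idn2, 10.1 in the triple mutant and 15.2 in the double.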

How the data were processed

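The authors deposited 1 table of RPKM values per library. Per the file headers these are RPKM; the table names give the TAIR8 gene models, and the submitters' processing notes name Bowtie without a version. The handling of strand, duplicates and multi-mapped reads was not stated. Each value times the gene span was a whole multiple of the library's smallest step (100% within 1e-06); the lowest multiple was 1, read as 1 added read and taken off. Positions count from 1 after adding 1 to the deposited ones. TAIR10.1 gave symbols, strand and exon lengths (32377 IDs matched).

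Log2(RPKM + 1) of 22362 genes was fitted with limma 3.58.1 in R 4.3.3, 1 mean for each genotype and a trend of spread on intensity; prior degrees of freedom were infinite (8.69 in the joint comparison), so each gene's spread came from the trend. Tests were checked on simulated data. Log2 increases of 2 and 3 were all recovered in every comparison, while increases of 1 and decreases of -2 were recovered in part. The share of calls on unchanged genes was above the nominal threshold in each comparison. Simulated WT libraries shared the same expected level per gene, so the shift with level between the real WT libraries was not simulated. Dispersion was fixed at the same value for all genes, and genes with few expected reads were not among those changed. Read ratios used scipy 1.17.1. Members and lists were chosen with earlier results of these data known. All members were named; from the lists, genes past the threshold, with the 3 most abundant other B-box genes, any called neighbour and the 3 genes most alike in pattern. No sequences were used.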

Additional observations from a re-analysis of the deposited data

How the results depend on the processing

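The direction of BBX17, BBX29 and BBX32 from WT was kept in all 4 mutants under pseudocounts of 0.1 and 0.5, no filter, median-of-ratios scaling, quantile normalization, voom on recovered reads and without either WT library. Over these, BBX29 ranged from 1.27 to 1.36 in nrpe1 and BBX17 from -2.25 to -1.81 in the triple mutant. Of 50 differences, 14 changed sign in at least 1 alternative; none of these 14 had been called. BBX17 was gained in the double mutant with both scalings and voom, and BBX32 in nrpe1 and the triple mutant with both scalings. The count of the 10 genes called in nrpe1 was 1 in place of 2 with voom (BBX17 lost). In the triple mutant it was 1 in place of 2 with no filter and with voom (BBX29 lost). In the joint comparison it was 1 in place of 2 with median-of-ratios scaling, 0 with quantile normalization, and 0 to 3 leaving out 1 library. The 2-fold rule in nrpe1 gave 1 in place of 2 on RPKM + 1, and in the triple mutant 1 to 2 leaving out a WT library. Among the other B-box genes the count was 2 in place of 1 in nrpe1 with median-of-ratios scaling, 2 in place of 1 in idn2 with quantile normalization, 0 in place of 2 in the triple mutant with voom, and 2 in place of 1 in the double mutant with either scaling; in the joint comparison it was 0 to 2 leaving out 1 library, and 0 in the joint fit itself by limma and by voom, with 4 at an unadjusted p under 0.05. The cause was not tested. CO cannot be compared at 2 to 6 reads. Each mutant has 1 library and the labels give the mutants no replicate number, so libraries were paired by depth alone. That pairing was used for the read ratios only, and the limma fits held no term for it. Exon lengths could not be used for CO, COL2, BBX17 and BBX32.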
